A study of Rattus norvegicus with 4 samples.

Results

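The genes described here are 10 markers of injured kidney tubules, among them 3 keratins: Havcr1, Lcn2, Clu, Spp1, Vim, Krt8, Krt18, Krt19, Tnfrsf12a and Cd44. They were chosen by name, through the symbols that the platform annotation gives to probe sets, out of 14217 genes with a probe set. The annotation holds 12 probe sets for them, and for Clu and Cd44, which have 2 each, the probe set with the higher mean over the arrays was used. The kidneys came from male Wistar rats weighing 300 to 480 g and were perfused outside the body, as a model of organs donated after the circulation has stopped. Each group is 1 Affymetrix rat array, and the RNA on it was pooled in equal amounts from 3 kidneys. In all 4 groups the left kidney lay 29 min without circulation in the dead animal, was flushed, and was perfused by machine with cold University of Wisconsin solution, an organ preservation fluid, over 3 h.

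The heparin array stands for kidneys that were then perfused warm for 30 min with a modified Krebs-Henseleit buffer, an oxygenated salt solution; both the cold and the warm perfusate held low molecular weight heparin at 10 IU/ml. The PPS array stands for kidneys perfused in the same way with 10 IU/ml of PPS, an agent that the labels give by this abbreviation alone. The warm array stands for kidneys with the cold and the warm perfusion and no supplement. The cold array stands for kidneys taken after the cold perfusion, and no array of unperfused kidney was analysed here. The model holds no circulating blood, so it leaves out the leukocytes that enter a transplant at reperfusion. With 1 array of pooled RNA per group there was no spread between replicates, and no difference between 2 arrays below has a p-value.

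Keratins are the intermediate filaments of epithelial cells and are built from pairs of a type II and a type I chain. Krt8 (type II) with Krt18 or Krt19 (type I) is the usual pair of simple epithelia such as renal tubules, and these chains, like the mesenchymal filament protein vimentin, are known to increase in tubule cells after injury. Havcr1 encodes KIM-1 and Lcn2 encodes NGAL, widely used biomarkers of acute kidney injury, while Clu, Spp1, Cd44 and Tnfrsf12a are secreted or cell surface proteins that accumulate in injured and regenerating tubules.

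Values are log2 expression values as deposited by the authors. Values under a floor of 4.51, the 50th percentile of all values, were raised to the floor before differences were taken, because the background correction decides how low values come out. Any gene that exceeded the floor on 1 array or more was analysed (9393 genes), and differences of 1 log2 unit or more, a 2-fold change, counted as higher or lower. Of the 10 markers, 8 were analysed, 7 of them above the floor on all 4 arrays. Cd44 passed through the PPS array alone, and Havcr1 and Lcn2 were under the floor on every array.

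The arrays had similar distributions (median log2 value between 4.498 and 4.544), and the kidney origin was plain in the segment markers: 16 of 17 annotated proximal tubule markers, 14 of 15 collecting duct markers and 5 of 5 podocyte markers were above the floor. Spiked-in controls differed between the arrays. All 24 probe sets of the poly-A controls, bacterial transcripts spiked into the RNA before labelling, were higher on the warm than on the cold array, by a median log2 difference of 1.25. The 18 hybridisation controls, added after labelling, had a median of 0.44 in the same comparison. In the poly-A controls the cold array was the one apart, while the medians against the warm array were 0.08 for heparin and -0.10 for PPS. In the hybridisation controls the supplement comparisons differed too: all 18 were lower on the heparin than on the warm array (median -0.28) and than on the PPS array (-0.47), and all 18 were higher on the PPS than on the warm array (0.17). The 3' minus 5' difference of the beta-actin probe sets, a measure of RNA quality, was 3.39 on the heparin, 3.19 on the PPS, 3.22 on the warm and 2.79 on the cold array. In any difference from the cold array, warm perfusion thus cannot be told apart from spike amount or RNA quality. Scaling all arrays to the poly-A controls moved the all-gene median of warm minus cold to -1.27, and scaling to the hybridisation controls moved it to -0.46.

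**Figure D1:**
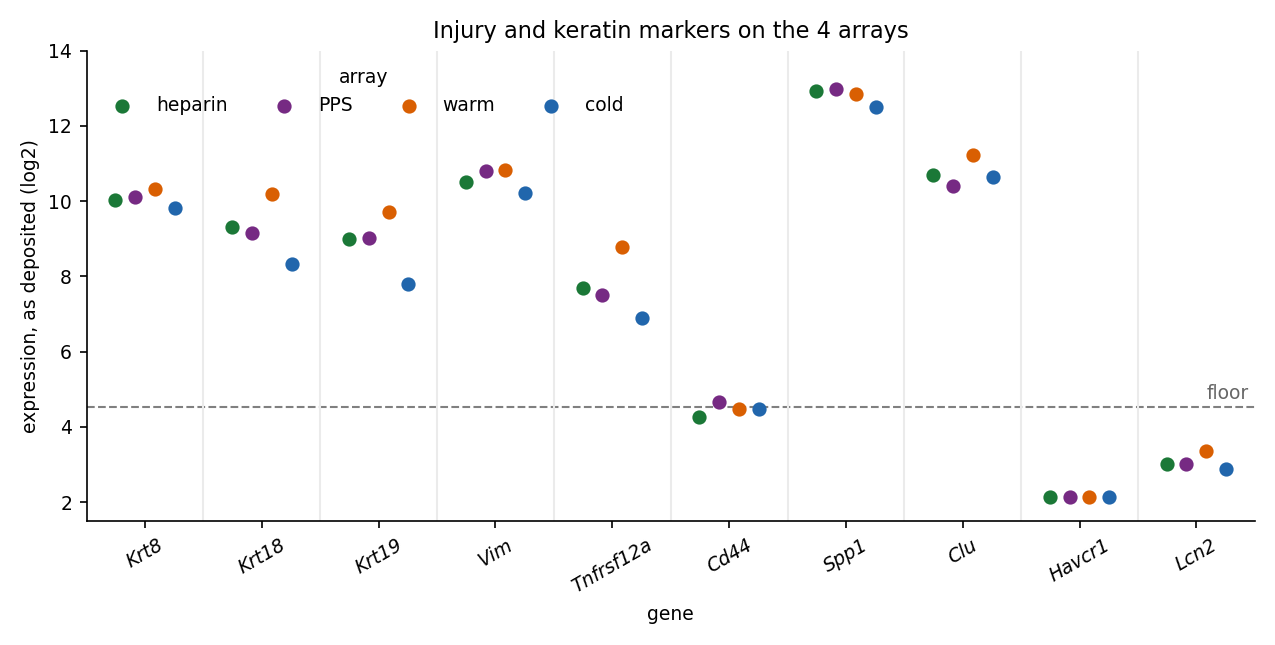
Deposited log2 expression (y axis) of the 10 injury and keratin markers (x axis) on the 4 arrays; each point is 1 array of RNA pooled from 3 kidneys, and the dashed line is the floor of 4.51. Krt18, Krt19 and Tnfrsf12a spread over 1.86 to 1.91 log2 units, with the warm array highest and the cold array lowest, while Havcr1 and Lcn2 lie under the floor.

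In warm minus cold, which asks what the warm oxygenated perfusion adds, 3 of the 8 analysed markers were higher by 2-fold or more: the type I keratins Krt19 and Krt18, and Tnfrsf12a, the receptor for the cytokine TWEAK. Their folds were 3.76, 3.63 and 3.69. None was lower by that size. Over all genes 2.48% were higher and 1.16% lower in this comparison. The markers were chosen with earlier results of these data known, so these shares are no test of them. The median log2 difference of the 8 markers was 0.61, against -0.0032 over all 9393 genes. With either supplement the same 3 genes lay below the warm array and, as deposited, above the cold array. Scaled to the poly-A controls, 5 of these 6 differences from the cold array were below 0: heparin minus cold was -0.39 for Krt18, -0.16 for Krt19 and -0.57 for Tnfrsf12a, and PPS minus cold was -0.35, 0.04 and -0.56.

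Krt18 had a log2 value of 9.30 on the heparin, 9.16 on the PPS, 10.19 on the warm and 8.33 on the cold array. The warm array was the highest, the supplement arrays lay close together, and the cold array was the lowest. The log2 difference was 1.86 in warm minus cold, which ranked 78th from the highest among 9393 genes. Against the warm array it was -0.89 for heparin and -1.04 for PPS, so that Krt18 was lower by 2-fold or more with PPS and just short of it with heparin.

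Krt19, the smallest keratin and a partner of Krt8 in ducts, had log2 values of 9.01 on the heparin, 9.03 on the PPS, 9.72 on the warm and 7.81 on the cold array. As for Krt18, the warm array was highest and the cold array lowest. The heparin and PPS arrays were 0.02 apart, with PPS above heparin, the reverse of Krt18. The warm minus cold difference of 1.91 ranked 73rd from the highest. Krt19 was the only marker that passed the size limit in all 3 comparisons with the cold array, at 2.29-fold for heparin, 2.33-fold for PPS and 3.76-fold for warm. Set against the warm array it differed by -0.72 with heparin and -0.69 with PPS, short of the limit.

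Krt8, the type II partner of both chains, moved much less than they did. Its log2 value was 10.04 on the heparin, 10.12 on the PPS, 10.34 on the warm and 9.81 on the cold array, a range of 0.52. The warm array was again highest and the cold array lowest, with a difference of 0.52 that stayed under the limit. The differences from the warm array were -0.30 with heparin and -0.21 with PPS. In the rat assembly GRCr8 Krt8 and Krt18 are neighbours with 0 protein-coding genes between them, yet their warm minus cold values were 0.52 for Krt8 and 1.86 for Krt18.

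The other keratins give the family context. The annotation holds 20 of them, of which 18 were under the floor on all arrays, including the basal and urothelial keratins Krt5, Krt14 and Krt20. Of all 14217 genes with a probe set, 9393 were above the floor on 1 array or more. Krt7, a duct keratin of type II, had log2 values of 12.36 on the heparin, 12.44 on the PPS, 12.54 on the warm and 12.37 on the cold array. Krt10 had 8.37, 8.15, 8.39 and 8.07 on these arrays in the same order. Neither Krt7 nor Krt10, a type I chain like Krt18 and Krt19, passed the limit in any of the 6 comparisons. Of the 5 keratins above the floor Krt18 and Krt19 were the 2 that did, as deposited. Scaled to the poly-A controls, neither of them passed in warm minus cold. Keratins have processed pseudogenes (known best for human KRT8 and KRT18), and whether the probe sets also read such copies was not tested.

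Vim, the intermediate filament of mesenchymal and endothelial cells and of dedifferentiated tubule cells, had log2 values of 10.51 on the heparin, 10.80 on the PPS, 10.83 on the warm and 10.21 on the cold array. The PPS and warm arrays were 0.03 apart and the heparin array lay between them and the cold array. The warm minus cold difference was 0.62, a 1.53-fold one, below the limit. Among 24 other genes of intermediate filaments and their desmosome anchors, 13 were above the floor. In warm minus cold, where 2.48% of all genes were higher and 1.16% lower, 0 of the 13 passed the limit and their median was 0.19. The largest in size there was Nes (nestin), at 0.95, and Dsp (desmoplakin), which ties keratins to desmosomes, had 0.66; both were picked after their values were seen. Against the warm array 0 of the 13 passed as well, with medians of -0.18 for heparin and -0.12 for PPS. Of all genes 1.48% were lower and 0.383% higher with heparin there, and 1.71% and 0.511% with PPS. In PPS minus cold 1 of the 13 was lower, Nefm (-1.38), where 0.788% of all genes were lower.

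Tnfrsf12a (Fn14), a small receptor of the tumour necrosis factor family that is induced rapidly in stressed epithelium, had log2 values of 7.69 on the heparin, 7.52 on the PPS, 8.78 on the warm and 6.90 on the cold array. The warm array stood 1.09 above the nearest other array. In heparin minus warm Tnfrsf12a was 2.13-fold lower (log2 difference -1.09) and was the only marker past the limit. In PPS minus warm it was 2.41-fold lower (-1.27), the largest difference of the set. Its ligand Tnfsf12 (TWEAK) had 9.23 on the heparin, 9.40 on the PPS, 9.15 on the warm and 9.19 on the cold array, a log2 difference of -0.04 in warm minus cold. Traf2, an adaptor of such receptors, differed by 0.28 in warm minus cold, so the receptor passed the limit and neither its ligand nor this adaptor did.

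The promoters of Krt18 and Tnfrsf12a, whose values over the arrays were the most alike of the markers past the limit, are shown with that of Krt8, the neighbour of Krt18 that stayed under it. RefSeq promoter sequences of GRCr8 were matched by gene identifier for 8 of the 10 markers, all but Clu and Krt19. Each runs from 250 bases before to 50 bases after the gene's start and is written 5′ to 3′ on the gene's strand. Capitals mark the AP-1 site (TGACTCA or TGAGTCA), the CRE (TGACGTCA), the GC box (GGGCGG) and the TATA box (TATAAA), each searched on both strands, so that CCGCCC and TTTATA are matches on the other strand.
Krt18 (chr7:135035918-135036217, + strand): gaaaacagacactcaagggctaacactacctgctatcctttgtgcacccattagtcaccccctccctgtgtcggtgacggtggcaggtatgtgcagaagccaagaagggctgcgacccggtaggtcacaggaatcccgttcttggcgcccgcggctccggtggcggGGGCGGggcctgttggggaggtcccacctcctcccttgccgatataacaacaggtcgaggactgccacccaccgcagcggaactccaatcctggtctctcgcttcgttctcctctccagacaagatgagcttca
Krt8 (chr7:135010290-135010589, - strand): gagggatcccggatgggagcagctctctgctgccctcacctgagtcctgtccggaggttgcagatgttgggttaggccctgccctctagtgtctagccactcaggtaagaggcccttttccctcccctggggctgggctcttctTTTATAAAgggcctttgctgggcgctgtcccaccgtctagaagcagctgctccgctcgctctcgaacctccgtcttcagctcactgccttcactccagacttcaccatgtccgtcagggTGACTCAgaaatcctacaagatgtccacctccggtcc
Tnfrsf12a (chr10:13213599-13213898, - strand): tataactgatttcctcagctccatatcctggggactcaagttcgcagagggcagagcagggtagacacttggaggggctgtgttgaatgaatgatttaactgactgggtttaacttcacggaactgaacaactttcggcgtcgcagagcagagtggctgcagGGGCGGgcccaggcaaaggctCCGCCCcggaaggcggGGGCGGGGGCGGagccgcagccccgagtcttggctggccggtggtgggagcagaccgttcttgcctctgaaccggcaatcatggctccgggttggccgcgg

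Krt18 held 1 GC box and no TATA box, and Tnfrsf12a held 4 GC boxes and no TATA box. Krt8 held a TATA box, matched on both strands at overlapping places, and no GC box. Among the other promoters searched, Vim held both, Spp1 a TATA box alone, and Havcr1, Lcn2 and Cd44 neither. The AP-1 letters were found in Krt8 alone of the 8 promoters, and the CRE in none of them. The match begins at base 14 from the annotated start of Krt8. The letters ATG stand at that annotated start, so it may be the start codon, and the distance to the transcription start was not tested. Over 33469 promoters of the same length, 33.1% held a GC box, 14.2% a TATA box, 4.63% the AP-1 letters and 1.83% the CRE. The looser NF-kappaB pattern (GGG, any 5 bases, CC) was present in 47.3% of promoters and overlaps the GC box in Krt18 and Tnfrsf12a. It was also found in Krt8, Vim, Lcn2 and Cd44. Of the other letters searched, CCAAT was held by 37.5% and the TEAD letters GGAATG by 14.2%; among the markers CCAAT was found in Vim and Krt18, and GGAATG in Lcn2. These matches describe letters and do not show binding.

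Cd44, the receptor for hyaluronan and for osteopontin, was close to the floor. Its log2 value was 4.26 on the heparin, 4.66 on the PPS, 4.47 on the warm and 4.47 on the cold array, and the PPS array alone was above the floor. The second Cd44 probe set read between 2.14 and 2.36, so no direction is given for this gene. Ezrin, moesin and radixin, which anchor Cd44 to the actin cortex, differed by -0.22 (Ezr), -0.08 (Msn) and -0.10 (Rdx) in warm minus cold. Has2, a hyaluronan synthase, was under the floor on all arrays.

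Spp1, which encodes osteopontin, a secreted ligand of integrins and Cd44, behaved unlike the keratins. Its log2 value was 12.94 on the heparin, 12.97 on the PPS, 12.84 on the warm and 12.49 on the cold array. The 3 warm-perfused arrays lay within 0.13 of each other, and the cold array was 0.35 below the lowest of them. Against the warm array Spp1 differed by 0.10 with heparin and 0.13 with PPS, both above 0, whereas the keratins, Tnfrsf12a, Clu and Vim differed by values below 0; in PPS minus warm Spp1 was -0.05 after scaling to the hybridisation controls and Vim 0.06 after scaling to the poly-A controls. Its integrin receptor chain Itgav differed by 0.04 in warm minus cold and Itgb1 by -0.01, and Itgb3 was under the floor on all arrays.

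Clu encodes clusterin, a secreted chaperone of stressed tubules. Its log2 value was 10.69 on the heparin, 10.40 on the PPS, 11.23 on the warm and 10.63 on the cold array. The warm array stood above the other 3, the heparin array was 0.06 above the cold array, and the PPS array was the lowest. Warm minus cold was 0.60, and the supplement arrays differed from the warm array by -0.54 (heparin) and -0.84 (PPS), all under the limit as deposited. After scaling to the hybridisation controls the PPS minus warm difference was -1.02. The second Clu probe set was at the lowest value of the arrays, 2.11, on all 4 and gave no check. Lrp2 (megalin), which takes up clusterin and NGAL from the filtrate, had 14.49 on the heparin, 14.62 on the PPS, 14.39 on the warm and 14.63 on the cold array.

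The established biomarkers gave no usable signal on these arrays. Havcr1 read 2.14 on all 4 arrays, close to the lowest value of 2.11. Lcn2 read 3.00 on the heparin, 3.00 on the PPS, 3.36 on the warm and 2.89 on the cold array. Values under the floor have no order, so no difference is given for either gene, and each has 1 probe set, so no second measurement was at hand. Slc22a17, a receptor described for NGAL, was above the floor and differed by 0.06 in warm minus cold.

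**Figure D2:**
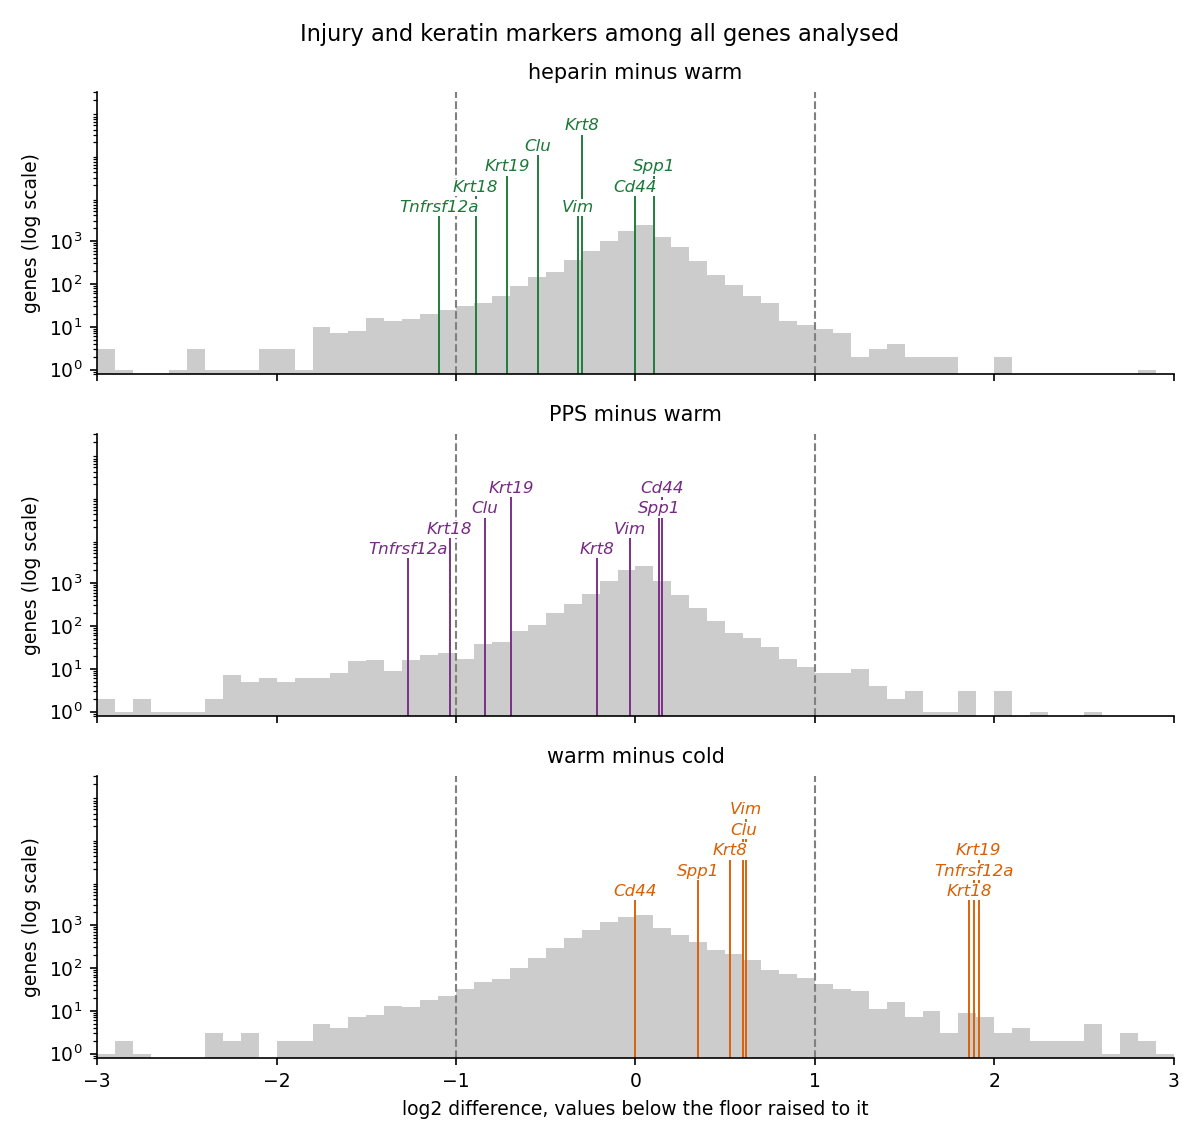
Histograms of log2 differences (x axis) over 9393 genes (y axis, log scale) for heparin minus warm, PPS minus warm and warm minus cold, with lines at the 8 analysed markers and dashed lines at the 2-fold limits. Genes beyond 3 log2 units in size are not drawn (8, 10 and 45 in these panels). Krt18, Krt19 and Tnfrsf12a lie past the upper limit in warm minus cold, and Tnfrsf12a, with Krt18 for PPS, lies past the lower limit in the supplement panels.

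In heparin minus warm, 1 of the 8 markers was lower by 2-fold or more (Tnfrsf12a) and 0 were higher, where 1.48% of all genes were lower and 0.383% higher. The median of the markers was -0.43, against 0 for all genes. In PPS minus warm, 2 were lower (Tnfrsf12a and Krt18) and 0 higher, where 1.71% of all genes were lower and 0.511% higher, and the median was -0.45. These comparisons share the warm array with each other and with warm minus cold, so an unusual warm array would move all of them together.

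Against the cold array, 1 marker, Krt19, was higher on the heparin array and 0 were lower, where 1.17% of all genes were higher and 0.916% lower. Krt19 was likewise the 1 marker higher on the PPS array, with 0 lower, where 1.03% of all genes were higher and 0.788% lower. Krt18 differed from the cold array by 0.97 with heparin and 0.83 with PPS, and Tnfrsf12a by 0.79 and 0.62. The markers' medians were 0.37 for heparin and 0.53 for PPS.

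Between heparin and PPS, both given at 10 IU/ml, no marker passed the size limit: 0 of 8 were higher and 0 lower in heparin minus PPS, where 0.192% of all genes were higher and 0.298% lower. The differences ran from -0.29 (Vim) to 0.29 (Clu), beside an SD of 0.24 over all genes. That no marker passed the limit does not show that the supplements act alike, since each is 1 array.

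The 3 warm-perfused arrays were also set against the cold array with limma, a fit over all 9393 genes whose 2 residual degrees of freedom hold supplement effects as well as chance and which assumes for the single cold array the same variation as for the others. At an adjusted p under 0.05 it called 0 of the 8 markers and 1 of all genes (0.0106%); 2 markers and 16.2% of all genes had an unadjusted p under 0.05. Krt19 averaged 9.25 on the warm-perfused arrays and 7.81 on the cold array, a mean difference of 1.44 (95% interval 0.24 to 2.64, adjusted p = 0.276 by limma). Spp1 differed by 0.43 with a narrower interval (0.18 to 0.67, adjusted p = 0.224 by limma), since its 3 warm-perfused values lay together. Krt18 differed by 1.22 (-0.43 to 2.87) and Tnfrsf12a by 1.10 (-0.92 to 3.11), intervals that include 0. The intervals cover no shift of a whole array: scaled to the poly-A controls, Spp1 differed from the cold array by -0.91 with heparin, -0.70 with PPS and -0.92 in warm minus cold. The 3 remaining markers above the floor on all arrays had mean differences of 0.50 (Vim), 0.35 (Krt8) and 0.14 (Clu), with intervals that include 0.

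**Figure D3:**
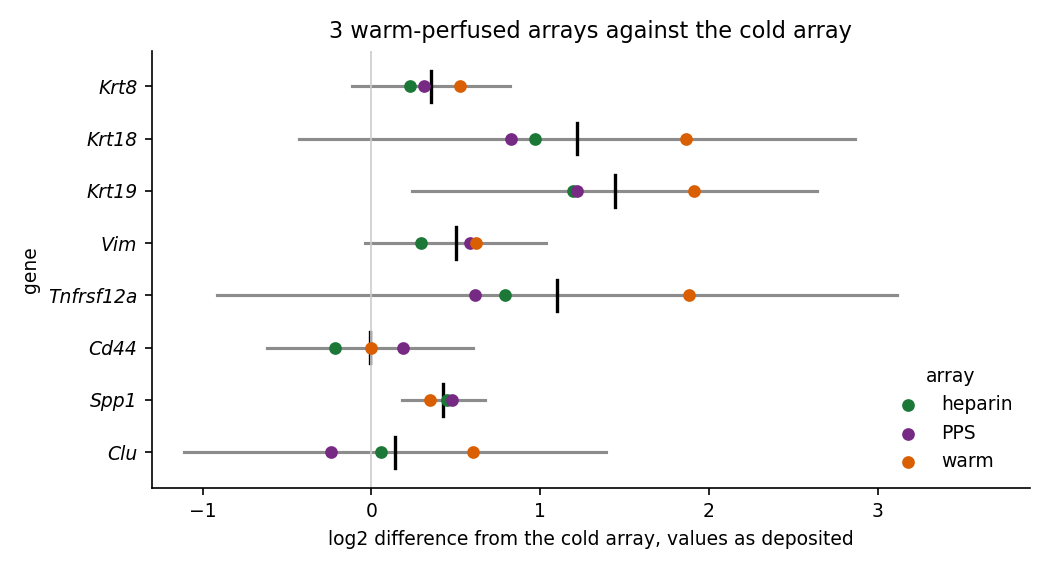
Log2 difference from the cold array (x axis) of the heparin, PPS and warm arrays (points) for the 8 analysed markers (y axis), with their mean (black bar) and limma's 95% interval (grey line). The intervals of Krt19 (0.24 to 2.64) and Spp1 (0.18 to 0.67) lie above 0 before adjustment over all genes, on the deposited scale. Their spread comes from the 3 warm-perfused arrays, drawn by limma toward a value shared by all genes analysed. They cover no shift of a whole array.

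Genes with the most similar course were sought by the Euclidean distance over the 3 differences from the cold array, among genes above the floor on all 4 arrays. Tnfrsf12a and Krt18 were near to each other, 0.28 log2 units apart, Krt18 standing at rank 4 of 9165 genes by nearness to Tnfrsf12a. The genes nearest to Krt19 were Sowahc (0.19), the BMP target Id1 (0.23) and Klf10 (0.27), a transcription factor induced by TGF-beta. Nearest to Tnfrsf12a were Arrdc2 (0.13), an arrestin-domain gene, the interferon-induced Ifit2 (0.26) and the transcription factor Klf5 (0.26). Nearest to Krt18 were Klf10 (0.20), Arrdc2 (0.21) and Ddit4 (0.25), a stress-induced inhibitor of mTOR signalling. Krt18 and Krt19 were 0.46 apart, Krt18 standing at rank 11 by nearness to Krt19. Tnfrsf12a was 0.73 from Krt19, at rank 29. The 3 markers were taken for their large warm minus cold differences, which also enter the distance. Their nearness to each other is thus partly set by that choice. With 4 arrays this likeness is a description of 3 numbers per gene.

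Among 42 annotated genes of a wider list of injury and repair, 35 were above the floor, of which 9 passed the limit upwards and 1 downwards in warm minus cold, with a median of 0.54, where 2.48% of all genes were higher and 1.16% lower. The largest were Ccn1 (4.12), a matricellular early-response gene, the transcription factor Klf6 (3.88), the EGF receptor ligand Hbegf (2.56) and Cdkn1a (1.87), the cell cycle inhibitor p21. In heparin minus warm 7 were lower and 1 higher (1.48% and 0.383% of all genes), with a median of -0.30. Ccn1 differed by -3.93, Cdkn1a by -1.95, Hbegf by -1.79 and Klf6 by -1.23. In PPS minus warm 7 were lower and 1 higher (1.71% and 0.511% of all genes), with a median of -0.35. Hbegf differed by -2.30, Klf6 by -2.05, Cdkn1a by -1.96 and Ccn1 by -1.57. The gene higher in both was Areg, which encodes the EGF receptor ligand amphiregulin, at 1.65 with heparin and 1.19 with PPS. The gene lower in warm minus cold was Cp, which encodes ceruloplasmin, at -1.05. Under the floor on all arrays were 7 genes of the list, among them Mmp7, Plaur and Fabp1. The list was chosen with earlier results of these data known, so its counts beside the shares of all genes are no test.

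Levels of several cell type marker lists differed between the arrays in the same comparisons, and their part in the values above was not tested. All values of lists are as deposited, and directions against the cold array hold on that scale only, given the shift of all genes by -1.27 under poly-A scaling. These lists, too, were chosen with earlier results of these data known. In tissue RNA, fewer cells of a type and less RNA per cell cannot be told apart. Krt8, Krt18 and Krt19 are known from collecting duct epithelium. All 14 collecting duct markers above the floor differed by more than 0 in warm minus cold, where 46.0% of all genes did. Their median was 0.69, and 1 was past the limit, the water channel Aqp4 (1.61), where 2.48% of all genes were higher. The log2 of the summed level of these 14 was 14.92 on the heparin, 14.81 on the PPS, 15.26 on the warm and 14.89 on the cold array, and Elf5 was under the floor. Against the warm array their medians were -0.56 for heparin and -0.48 for PPS, where Aqp4 differed by -1.20 and -1.28; the sodium channel subunit Scnn1a differed by -1.07 with heparin.

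In warm minus cold, where 2.48% of all genes were higher by 2-fold or more, the podocyte markers Nphs1 (1.06) and Wt1 (1.01) passed the limit. The 5 podocyte markers, from cells that carry vimentin, had a median of 0.95 there. Their summed level was 12.16 on the heparin, 12.40 on the PPS, 12.56 on the warm and 11.75 on the cold array, as log2. Smooth muscle, pericyte and fibroblast markers belong to other vimentin-rich cells. Of the 9 above the floor, 6 were lower by 2-fold or more in warm minus cold, where 1.16% of all genes were lower. Col1a2 (-1.43), Pdgfrb (-1.35), Tagln (-1.31) and Col1a1 (-1.29) were the largest. The median of the 9 was -1.13. Their summed level was 12.06 on the heparin, 12.60 on the PPS, 11.81 on the warm and 12.87 on the cold array, as log2, and Lum and Cnn1 were under the floor. In PPS minus warm 3 of the 9 were higher, with Col1a1 at 1.70 and Col1a2 at 1.47, where 0.511% of all genes were higher. The part of stromal cells in the Vim values was not tested; after scaling to the poly-A controls Vim differed from the cold array by -1.06 with heparin, -0.59 with PPS and -0.65 in warm minus cold, against values above 0 as deposited.

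Proximal tubule markers, from the segment in which Havcr1 is induced by injury, had a median of -0.23 in warm minus cold over 16 genes with 0 past the limit, and against the warm array medians of 0.02 for heparin and 0.12 for PPS. The medians in warm minus cold were 0.44 for 7 thick limb and distal tubule markers, 0.25 for 10 endothelial markers and 0.17 for 7 leukocyte markers, with 0 past the limit in each. Under the floor on all arrays were 7 of 14 annotated leukocyte markers: Cd68, Itgam, Ms4a1, Cd8a, Cd4, S100a8 and S100a9. The macrophage genes Lyz2 (13.00 on the heparin, 13.07 on the PPS, 13.28 on the warm and 13.31 on the cold array) and Csf1r (8.83, 9.16, 9.06 and 8.90) were well above it, as were Cd74, C1qa, C1qb and the pan-leukocyte gene Ptprc. Of 8 annotated urothelium markers 7 were under the floor, Krt7 being the other.

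**Figure D4:**
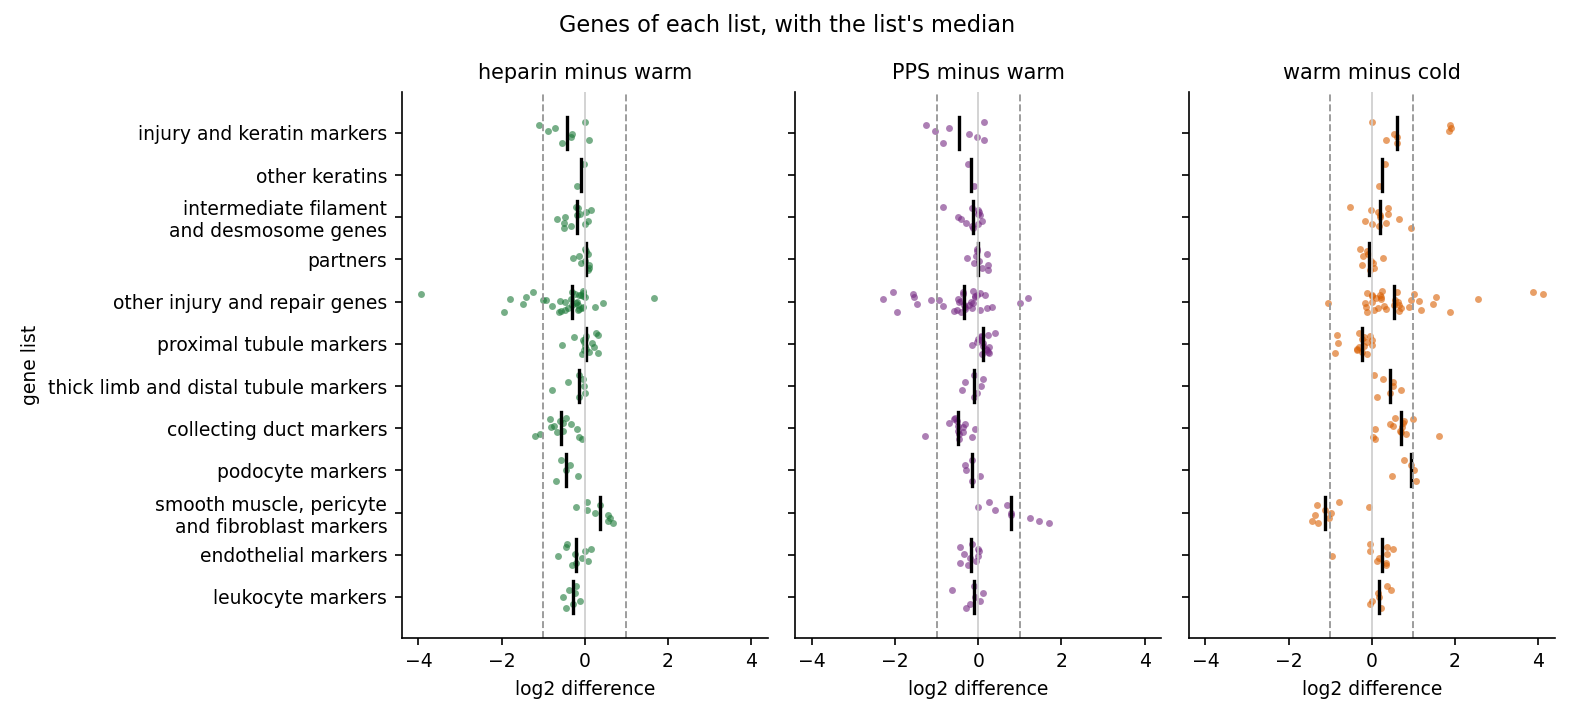
Log2 differences (x axis) of the genes above the floor in each list (y axis) for heparin minus warm, PPS minus warm and warm minus cold; each point is 1 gene, black bars are list medians and dashed lines the 2-fold limits. The markers' medians are -0.43, -0.45 and 0.61 in these panels, and those of the collecting duct markers are -0.56, -0.48 and 0.69.

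Scaling bears on every difference from the cold array. After scaling to the poly-A controls Krt18, Krt19 and Tnfrsf12a differed by 0.59, 0.64 and 0.62 in warm minus cold, above 0 but under the limit, while Clu, Spp1, Vim and Krt8 had values below 0 (-0.67, -0.92, -0.65 and -0.74). That scaling moves all values of an array by 1 constant and so cannot change the order of the 7 markers above the floor on all arrays. Cd44, with values raised to the floor, moved from below Spp1 as deposited to just above it (-0.91 against -0.92). Tnfrsf12a, Krt18, Krt19, Krt8 and Clu kept their direction in both supplement comparisons under each scaling. Tnfrsf12a had -1.18 for heparin and -1.18 for PPS by the poly-A controls, and -0.81 and -1.45 by the hybridisation controls.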

How the data were processed

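Messenger RNA was measured on 4 Affymetrix rat arrays, 1 per group. The deposited values, 1 log2 expression value per probe set and array, were made with GCRMA (background correction, normalization and summary) per the submitters' processing notes; no source used here gives the GCRMA version. That the scale is log2 follows from the range, 2.11 to 16.4. GCRMA gives arrays nearly equal distributions, so a change in total messenger RNA would not be seen, and between 27.1% and 27.3% of probe sets per array were at the common lowest value. The number of arrays limits the precision.

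Of 31099 probe sets, 57 are controls; 20832 have 1 gene symbol in the platform annotation, 436 have several (not used) and 9780 are unnamed here. Current RefSeq symbols (GRCr8) were assigned by Entrez identifier, which matched 20758 probe sets. Per gene the probe set with the highest mean was taken. Values under the floor (the 50th percentile) were raised to it. Differences were computed in Python 3.11.15 and the fit in limma 3.58.1 (lmFit, eBayes, Benjamini-Hochberg). The fit was also run on simulated data with equal noise in all genes, no supplement effects and no shift of a whole array. That run checks the code and does not bear on these limits of the design. Named by rule are the 10 markers, their binding partners, in each list up to 4 genes past the limit in warm minus cold and up to 2 in the supplement comparisons, by size, and the 3 nearest genes to each of 3 markers. Other keratins, genes under the floor, leukocyte genes, Nes, Dsp, Nefm, Areg and Cp were named after their values were seen. The markers and lists were chosen with earlier results of these data known. Alternatives covered the floor, the probe set, 3 scalings, the size limit and limma's options.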

Additional observations from a re-analysis of the deposited data

How the results depend on the processing

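Lowering the floor to the 25th percentile (2.11, which also admits Havcr1 and Lcn2), using no floor, averaging probe sets and median centring left every count of markers past the limit as it was in all 6 comparisons. Medians moved, with the largest move in PPS minus warm, to -0.28 with the lower floor and -0.32 with averaged probe sets, against -0.45. The limma count of markers was 0 under all 3 alternative fits, where 0 of all genes passed in place of 1. Scaling to the poly-A controls gave 0 higher and a median of -0.66 in warm minus cold, 0 higher, 3 lower and -0.91 in heparin minus cold, 0 higher, 1 lower and -0.65 in PPS minus cold, and 1 lower in PPS minus warm. Krt19, called in heparin minus cold, turned to -0.16; Krt18 (-0.39, -0.35) and Tnfrsf12a (-0.57, -0.56), not called with heparin or PPS against cold, turned below 0 too. Scaling to the hybridisation controls gave medians of 0.15 in warm minus cold, -0.10 in PPS minus cold (0 higher), -0.15 in heparin minus warm (0 lower) and 0.43 in heparin minus PPS. In PPS minus warm it gave 3 lower, with Clu (-1.02) added, and a median of -0.63. With a limit of 1.5-fold, the markers higher than on the cold array numbered 3 for heparin, 4 for PPS and 5 for warm, and against the warm array 3 were lower with heparin and 4 with PPS, because a lower limit admits smaller differences; the shares of all genes past it were 3.67%, 3.48% and 6.81% higher than on the cold array for heparin, PPS and warm, and 3.91% and 3.73% lower than on the warm array for heparin and PPS. The cause of the differences between scalings was not tested. Over all genes, calls after poly-A scaling were 65 higher and 7689 lower in warm minus cold (233 and 109 as deposited), 32 and 8358 in heparin minus cold (110 and 86), 23 and 7428 in PPS minus cold (97 and 74) and 10 and 49 in heparin minus PPS (18 and 28). After hybridisation control scaling they were 116 and 429, 72 and 134, 39 and 765, and 142 and 11 in these comparisons, and 86 and 85 in heparin minus warm (36 and 139). No replicate could be left out, with 1 array per group, and no paired analysis was possible because each group has 1 array. Signal over background limits Havcr1, Lcn2 and Cd44.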
